A study of Rattus norvegicus with 45 samples.

Results

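The subject is how the effect of risperidone differed between hippocampus and frontal cortex of the same rats. It rests on 20 of the 45 arrays of the study, namely the hippocampus and the frontal cortex of 5 risperidone rats and of 5 vehicle rats, chosen by their region and treatment labels and by the animal number that ties the regions of a rat together. Male Sprague-Dawley (SD) rats, none with a genetic modification stated, were implanted at 9 to 11 weeks of age with osmotic minipumps that delivered risperidone at 5 mg/kg/d or vehicle (dilute acetic acid in water) for 21 days. All rats were implanted and no disease was modelled. The other rats received haloperidol at 0.25 mg/kg/d, and striatum, the other region collected, was not used here.

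Risperidone is an antipsychotic that blocks dopamine and serotonin receptors. Frontal cortex and hippocampus both receive dopamine and serotonin fibers, and neurons in both switch on immediate early genes such as Fos and Arc within minutes of synaptic activity, through calcium, cyclic AMP and extracellular signal-regulated kinase (ERK) signaling. Some of these genes encode transcription factors, and others encode effectors that act at the synapse.

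For each rat, the log2 level in frontal cortex was subtracted from that in hippocampus, and these differences were compared between the 5 risperidone and the 5 vehicle rats with limma. The result, called the regional difference here, equals the change in hippocampus minus the change in frontal cortex, where a change is risperidone minus vehicle. It is positive where hippocampus moved up relative to frontal cortex, whatever each region did on its own. Calls required an adjusted p under 0.05 (Benjamini-Hochberg over all 18609 probe sets tested) together with a difference of at least 1.2-fold. Array medians differed between the regions, so a level in one region set against the other carries an offset that cancels in the regional difference.

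The labels were checked against neuronal markers, of which only some set the regions apart. Of 6 hippocampal neuron markers, 4 (Fibcd1, Grik4, Prox1 and Zbtb20) were higher in every hippocampus array than in any frontal cortex array, while Dsp and Tdo2 overlapped. Of 8 cortical neuron markers, only Cux2 and Lamp5 were higher in every frontal cortex array. The other 6 (Cux1, Fezf2, Foxp2, Rorb, Tbr1 and Tshz2) overlapped, and Fezf2 ran from 8.44 to 9.15 in hippocampus, against 8.15 to 8.79 in frontal cortex. Several libraries stood apart in markers of neighboring tissue, and the groups differed in some of them. The mean log2 level of 9 olfactory bulb and neuroblast markers in frontal cortex was 8.80 in risperidone rat 2 and 8.22 in risperidone rat 5, against 6.52 to 6.76 in the other risperidone rats and 6.29 to 6.49 in vehicle rats. Striatal projection neuron markers (13 genes) in frontal cortex averaged 8.29 in risperidone rat 1. They ran from 7.43 to 7.57 in the other risperidone rats and from 7.24 to 7.75 in vehicle rats. Markers of choroid plexus and meninges (19 genes) in hippocampus reached 7.03 and 7.75 in risperidone rats 2 and 3, against 6.11 to 6.68 in vehicle rats. In hippocampus, 6 hippocampal neuron markers averaged 7.67 to 7.92 in risperidone rats and 7.91 to 8.13 in vehicle rats, and 8 cortical neuron markers averaged 7.50 to 7.95 in risperidone rats and 7.14 to 7.79 in vehicle rats. The log2 ratio of 3' to 5' control probe sets, a sign of RNA integrity, ran from 0.52 to 0.69 in risperidone hippocampus, 0.52 to 0.68 in vehicle hippocampus, 0.58 to 0.81 in risperidone cortex and 0.69 to 0.74 in vehicle cortex. In tissue pieces such as these, fewer cells of a type and less RNA per cell cannot be told apart.

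**Figure D1:**
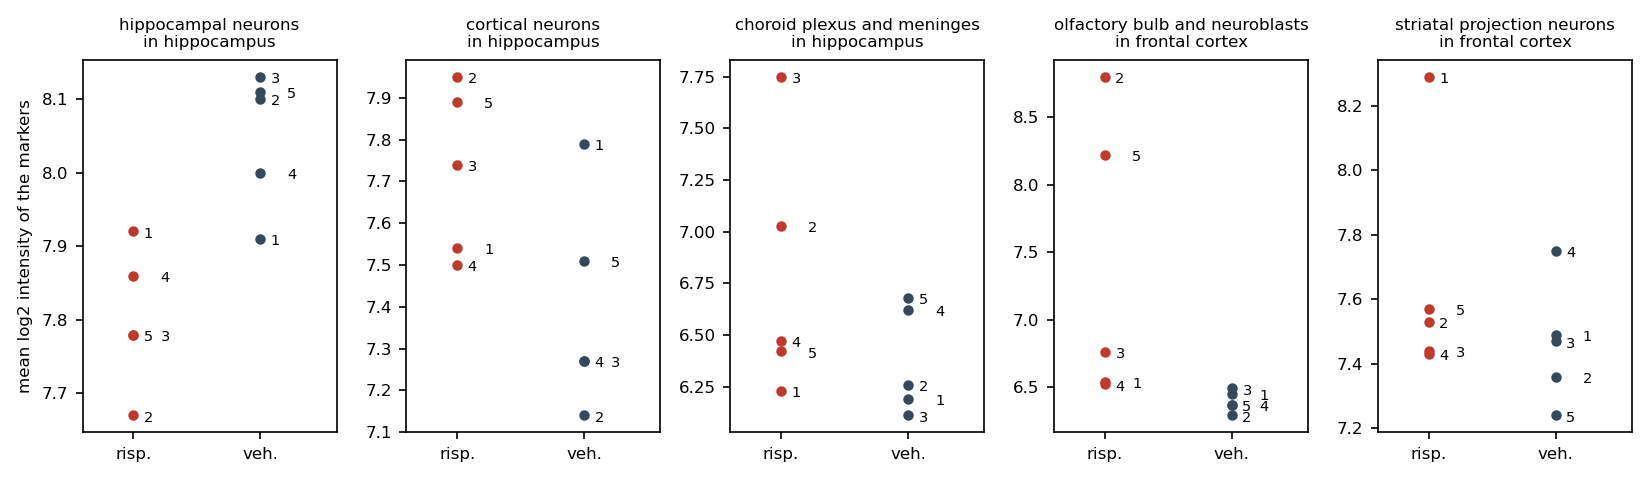
Mean log2 intensity of marker genes (vertical axis) in each rat, risperidone left of vehicle, with the rat's replicate number beside its point. The 3 left panels are hippocampus and the 2 right panels frontal cortex. Olfactory bulb markers were high in risperidone rats 2 and 5, and hippocampal neuron markers lay lower in 4 of the 5 risperidone rats than in any vehicle rat.

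The regional difference was called higher for 236 probe sets (1.27% of those tested) and lower for 70 (0.376%). In frontal cortex alone, 50 probe sets rose (0.269%) and 144 fell (0.774%) after risperidone. In hippocampus alone none was called by limma, although 3836 had an unadjusted p under 0.05. Leaving out single rats moved the hippocampus count to 263 without risperidone rat 1, 60 without vehicle rat 3 and 4 without risperidone rat 5, with 0 without any other rat. The frontal cortex count of 194 was 25 without vehicle rat 4, 30 without vehicle rat 1, 42 without vehicle rat 5, 55 without risperidone rat 3 and 71 without risperidone rat 4.

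The counts of called regional differences depended on the rats. Without the marker-rich risperidone rats 2 and 5, 14 probe sets were called higher and 2 lower, all of them among the 306 called with every rat. The median of the 236 higher ones was 0.42 without these rats and 0.45 with them. A similar median follows in part from the choice of the 236, which was made with the kept rats included. With the hippocampal and cortical neuron markers of hippocampus as covariates no probe set was called (smallest adjusted p = 0.0878 with limma). In that fit 222 of the 306 had an unadjusted p under 0.05, beside 2284 of all 18609 probe sets tested. The difference itself then shrank by over 1.5 times in 13 of the 41 genes named below and grew by as much in 1, Pik3ca (0.97). Among the 13, Nr4a1 went to 0.10 (0.68 without covariates), Arc to 0.28 (0.76), Fos to 0.35 (0.88), Ier5 to 0.22 (0.53), Asap1 to 0.36 (0.78), Etv5 to 0.20 (0.37) and Irs2 to 0.19 (0.34). On the lower side Smpd2 went to -0.11 (-0.64), Htr4 to -0.17 (-0.52), Rnf182 to -0.27 (-0.59), Cst6 to -0.39 (-0.72), Smo to -0.33 (-0.53) and LOC102555644 to -0.42 (-0.63). Others stayed closer, such as Ptgs2 at 0.95, Rapgef4 at 0.69, Ankrd13c at 0.84 and Sncg at -0.92. With olfactory bulb and choroid plexus markers as covariates 95 were called higher and 9 lower. Olfactory bulb markers of frontal cortex ran from 6.52 to 8.80 in risperidone rats, above 6.29 to 6.49 in vehicle rats. Hippocampal neuron markers of hippocampus barely overlapped, at 7.67 to 7.92 in risperidone rats and 7.91 to 8.13 in vehicle rats. These fits therefore cannot tell tissue composition from treatment, and the part of composition was not tested. Of the single rats, leaving out risperidone rat 5 (45 higher, 7 lower), vehicle rat 4 (52 and 8) or vehicle rat 5 (68 and 10) cost the most calls. Leaving out vehicle rat 1 gave 138 and 29, vehicle rat 2 gave 112 and 30, vehicle rat 3 gave 163 and 30, risperidone rat 1 gave 220 and 139, risperidone rat 2 gave 164 and 34, risperidone rat 3 gave 157 and 39, and risperidone rat 4 gave 166 and 43.

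**Figure D2:**
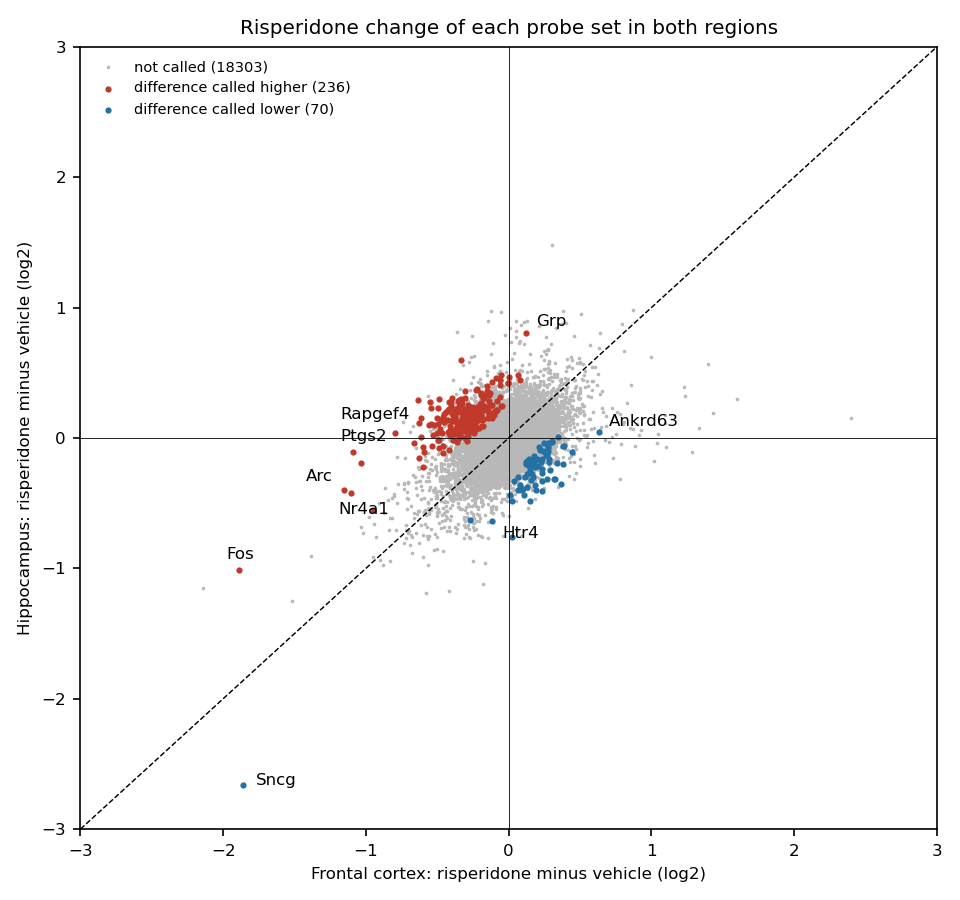
Change of each of 18609 probe sets after risperidone in frontal cortex (horizontal axis, log2) and in hippocampus (vertical axis, log2). The dashed line marks equal changes, red points are the 236 called above it and blue points the 70 called below it. Most red points combine a negative change in frontal cortex with a change near or above 0 in hippocampus.

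Most called regional differences joined changes of opposite sign, although none of the hippocampal changes was called. Choosing probe sets by hippocampus minus frontal cortex favors opposite signs by itself. The counts and medians that follow therefore only describe the called probe sets. By size, the cortical change was at least 2 times the hippocampal one in 113 of the 236 higher probe sets, 96 had opposite changes of closer size, 25 were led by hippocampus and 2 had changes of 1 sign and closer size. The 70 lower ones held 17, 34, 18 and 1 of these kinds. Of the 236 higher probe sets, 209 had a positive change in hippocampus and a negative one in frontal cortex, 23 were negative in both, and 4 were positive in both. The change was larger in frontal cortex for 180 of the 236, with a median of -0.30 in frontal cortex and 0.15 in hippocampus. Of the 70 lower probe sets, 65 were negative in hippocampus and positive in frontal cortex, 3 negative in both and 2 positive in both, with medians of -0.21 in hippocampus and 0.20 in frontal cortex. In frontal cortex alone 58 of the 236 higher probe sets were called as fallen, and of the 70 lower ones 4 were called as risen and 1 as fallen.

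The called probe sets were also unevenly spread over genes that differ between the regions in rats outside the contrast. Those rats received haloperidol, so they give no untreated baseline. In haloperidol rats, which took no part in the contrast, hippocampus minus frontal cortex lay below the median of all tested probe sets for 186 of the 236 higher ones (78.8%) and above it for 46 of the 70 lower ones (65.7%), against 50% by construction over all probe sets. Thus genes with a positive regional difference were more often relatively cortical, and those with a negative one more often relatively hippocampal. Their median offset from all probe sets was -0.25 for the higher and 0.20 for the lower ones.

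Among 41 genes named by a rule on size and on list membership, 26 had a higher and 15 a lower regional difference. The per-rat differences of the risperidone and vehicle rats did not overlap for 18 of the 26 and 10 of the 15. Of all 18609 probe sets tested, 923 did not overlap. The named genes were chosen for called differences in these same rats, which favors a lack of overlap. The promoters of 27 of the 41 genes were in the RefSeq table (GRCr8, from 250 bases before the start site to 50 after it). Below are the 250 bases before the start site of 4 genes with a higher regional difference, on the plus strand and 5' to 3', shown because they hold an E-box or matches to the cyclic AMP response element (CRE) through which CREB acts. Capitals mark the full CRE TGACGTCA, its core TGACG or CGTCA, which the full element contains on both strands, and the E-box CACGTG.
Ptgs2, chr13:64713813-64714062: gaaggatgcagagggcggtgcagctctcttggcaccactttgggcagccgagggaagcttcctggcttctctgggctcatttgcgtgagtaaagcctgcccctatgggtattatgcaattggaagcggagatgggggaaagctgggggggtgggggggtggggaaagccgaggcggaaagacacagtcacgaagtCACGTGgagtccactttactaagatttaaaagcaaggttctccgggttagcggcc
Nr4a1, chr7:134259888-134260137: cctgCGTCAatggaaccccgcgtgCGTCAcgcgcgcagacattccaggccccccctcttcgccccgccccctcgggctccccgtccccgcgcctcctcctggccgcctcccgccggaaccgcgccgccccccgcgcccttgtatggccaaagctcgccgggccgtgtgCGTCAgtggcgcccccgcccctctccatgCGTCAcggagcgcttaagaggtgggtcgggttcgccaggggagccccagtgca
Pak1, chr1:161522200-161522449: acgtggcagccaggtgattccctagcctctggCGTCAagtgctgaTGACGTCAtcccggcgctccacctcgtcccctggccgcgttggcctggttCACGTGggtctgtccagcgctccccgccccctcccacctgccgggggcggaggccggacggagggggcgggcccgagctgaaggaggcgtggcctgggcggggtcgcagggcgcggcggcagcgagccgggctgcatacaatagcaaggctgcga
Ankrd13c, chr2:249681746-249681995: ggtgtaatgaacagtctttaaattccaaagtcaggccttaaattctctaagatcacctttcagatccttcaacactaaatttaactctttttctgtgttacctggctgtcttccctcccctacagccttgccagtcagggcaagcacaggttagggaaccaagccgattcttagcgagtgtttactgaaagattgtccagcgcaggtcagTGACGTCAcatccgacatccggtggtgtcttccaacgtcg
Nr4a1 held 4 CRE cores, at 246, 226, 82 and 53 bases before its start site. The full CRE began 40 bases before the start site in Ankrd13c and 205 bases before it in Pak1, and the E-box of Ptgs2 began 55 bases before it. Searched on both strands of the whole windows, the CRE core was in 8 of 17 named genes with a higher and 3 of 10 with a lower regional difference, against 21.2% of 33469 promoters. The full CRE was in 2 of the 17 and 0 of the 10 (1.83% of all promoters), the E-box in 2 of the 17 and 1 of the 10 (6.42%), and the serum response element core in neither (1.64%).

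Immediate early transcription factors carried the clearest group of higher regional differences. Over all probe sets tested, 1.27% were called higher and 0.376% lower, the shares to set beside those of this and the later lists. A single call says little about a list. Of 17 probe sets for 12 genes tested, 5 were called higher (29.4%) and none lower, and 15 were positive, with a median of 0.25 against -0.004 over all probe sets. In frontal cortex 8 of the 17 fell and their median change was -0.47, while in hippocampus their median was -0.26 with none called. The 5 called genes were Fos, Nr4a1, Ier5, Klf10 and Nr4a3.

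Fos, a component of the AP-1 transcription factor, had log2 levels of 7.26, 7.64, 6.57, 6.44 and 6.88 in hippocampus of risperidone rats 1 to 5, against 8.78, 7.50, 7.87, 7.56 and 8.13 in hippocampus of vehicle rats 1 to 5. In frontal cortex it had 7.86, 7.95, 6.94, 6.43 and 6.91 in risperidone rats, against 9.16, 8.63, 9.46, 8.83 and 9.45 in vehicle rats. The groups were apart in frontal cortex and overlapped in hippocampus. With limma, cortical Fos fell by 1.89 (standard error 0.28, adjusted p = 0.0152), its change in hippocampus was -1.01 (standard error 0.27, adjusted p = 0.113), and its regional difference was 0.88 (standard error 0.19, adjusted p = 0.0442). Per rat, hippocampus minus cortex overlapped between groups through vehicle rat 1 at -0.38, and Fos stayed called only without risperidone rat 1 or vehicle rat 1, with its highest adjusted p, 0.119, without vehicle rat 4.

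Nr4a1, an orphan nuclear receptor induced by activity, had 8.61, 8.35, 8.25, 8.07 and 8.30 in risperidone hippocampus, against 9.08, 8.57, 9.02, 8.57 and 8.46 in vehicle hippocampus. In frontal cortex it had 8.68, 8.03, 7.96, 7.87 and 8.08 in risperidone rats, against 9.32, 8.86, 9.82, 8.80 and 9.33 in vehicle rats. All 5 risperidone cortices lay below all 5 vehicle cortices, and in hippocampus the ranges overlapped. The regional difference was 0.68 (standard error 0.14, adjusted p = 0.0328), from -1.11 in frontal cortex (adjusted p = 0.0290) and -0.42 in hippocampus (adjusted p = 0.142). It stayed called without risperidone rat 1, vehicle rat 1 or vehicle rat 2, and missed the threshold without each of the other 7 rats, reaching 0.0900 without risperidone rat 5.

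Ier5, an early response gene, and Klf10, a zinc finger factor induced by transforming growth factor beta, differed by 0.53 (adjusted p = 0.0309) and 0.43 (adjusted p = 0.0318). Their cortical changes of -0.31 and -0.41 did not pass the test. The other probe set of Ier5 had a regional difference of 0.22 (adjusted p = 0.318). Nr4a3, a relative of Nr4a1 picked out after its values were seen, differed by 0.40 (adjusted p = 0.0347) with a fall of 0.95 in frontal cortex and -0.55 in hippocampus (adjusted p = 0.0818). Leaving out single rats ended the call of Ier5 in 8 of 10 cases and that of Klf10 in 7, at adjusted p values of 0.0922 and 0.0891 without vehicle rat 4. Egr1 and Egr2, zinc finger factors of the same response, had regional differences of 0.48 (adjusted p = 0.0788) and 0.99 (adjusted p = 0.0825), which did not pass, while in frontal cortex Egr1 fell by 0.86 and Egr2 fell by 2.14. Jun went the other way, at -0.23 (adjusted p = 0.186).

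**Figure D3:**
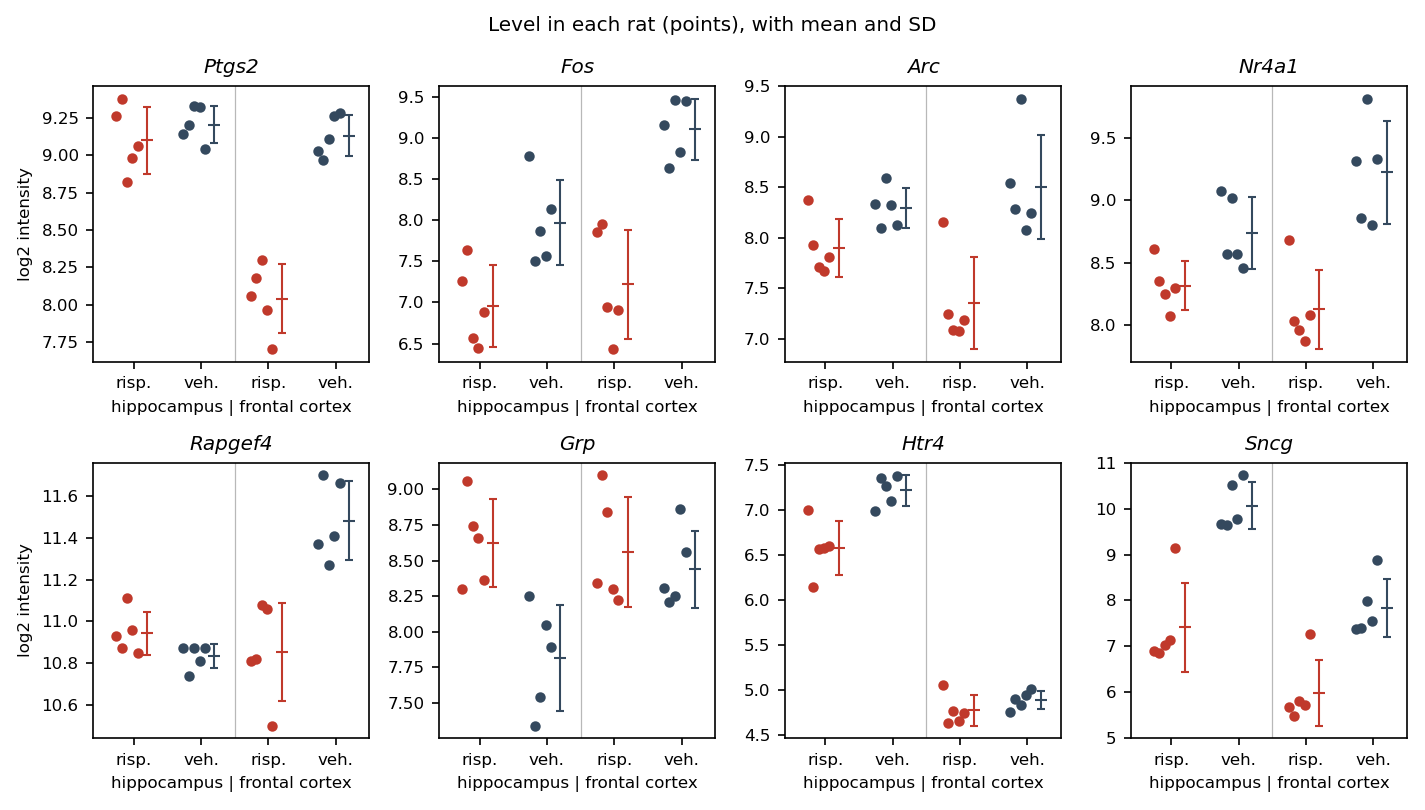
Log2 intensity of 8 genes in each rat (points) with the group mean and SD beside them, for hippocampus on the left and frontal cortex on the right of each panel, risperidone left of vehicle. Ptgs2, Fos, Nr4a1 and Rapgef4 did not overlap between treatments in frontal cortex, Arc overlapped there through risperidone rat 1, Grp was apart in hippocampus and Sncg in both, and Htr4 overlapped in hippocampus through risperidone rat 1.

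Of the activity-induced effectors, 5 of 24 probe sets (20.8%) for 4 of 16 genes were called higher and none lower. Their median regional difference was 0.26, with medians of -0.07 in hippocampus and -0.26 in frontal cortex, where 7 of the 24 fell. Ptgs2, which encodes the inducible cyclooxygenase and had the largest positive difference of the named genes, illustrates a change seen in frontal cortex. It had 8.06, 8.18, 8.30, 7.96 and 7.70 in frontal cortex of risperidone rats, against 9.03, 8.97, 9.11, 9.26 and 9.28 in that of vehicle rats. In hippocampus it had 9.26, 9.38, 8.82, 8.98 and 9.06 in risperidone rats, against 9.14, 9.20, 9.33, 9.32 and 9.04 in vehicle rats. The cortical groups were apart by more than their spread, and the hippocampal groups were interleaved. Cortical Ptgs2 fell by 1.09 (standard error 0.11, adjusted p = 0.00343), its change in hippocampus was -0.10 (standard error 0.10, adjusted p = 0.572), and the regional difference was 0.98 (standard error 0.14, adjusted p = 0.0137). It stayed called without each single rat, and without risperidone rats 2 and 5 it was 0.83 (adjusted p = 0.0682).

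Arc, which acts in the removal of glutamate receptors from the synapse, had 8.16, 7.25, 7.09, 7.08 and 7.19 in risperidone cortex, against 8.54, 8.29, 9.38, 8.08 and 8.25 in vehicle cortex. In hippocampus it had 8.38, 7.93, 7.71, 7.67 and 7.81 in risperidone rats, against 8.34, 8.10, 8.59, 8.33 and 8.13 in vehicle rats. Risperidone rat 1 was the high value of its group in both regions and reached into the vehicle range. The regional difference was 0.76 (standard error 0.16, adjusted p = 0.0363), while the changes of -1.16 in frontal cortex (adjusted p = 0.0582) and -0.40 in hippocampus (adjusted p = 0.153) did not pass. Leaving out any one of risperidone rats 2 to 5 or of vehicle rats 1, 2 and 5 ended the call, with an adjusted p of 0.0994 without risperidone rat 5.

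Homer1, a scaffold of metabotropic glutamate receptors, was measured by 5 probe sets, of which 2 were called higher, and all 5 were positive. The one with the smallest p differed by 0.40 (adjusted p = 0.0324), with a fall of 0.46 in frontal cortex and -0.06 in hippocampus, a call that ended in 6 of 10 cases when single rats were left out (0.0978 without vehicle rat 4). A different probe set of Homer1 had far larger changes, -1.52 in frontal cortex and -1.25 in hippocampus, that nearly cancelled in the regional difference (0.27, adjusted p = 0.405). Vgf, the precursor of secreted neuropeptides, also picked out after its values were seen, differed by 0.54 (adjusted p = 0.0437) with a fall of 0.38 in frontal cortex. Rgs4, a regulator of G protein signaling, had a difference of 1.17 that did not pass (adjusted p = 0.0788), and Bdnf had 0.21 (adjusted p = 0.311).

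Among 15 probe sets for ERK feedback regulators, 1 was called higher (6.67%), for Etv5, a member of the ETS family that ERK signaling induces. Etv5 fell by 0.60 in frontal cortex (adjusted p = 0.0179), was at -0.22 in hippocampus (adjusted p = 0.156), and had a regional difference of 0.37 (adjusted p = 0.0435) that ended in 8 of 10 cases on leaving out single rats (0.116 without risperidone rat 5). Dusp6, a phosphatase that switches ERK off, showed 0.42 without passing (adjusted p = 0.0630). The 27 clock gene probe sets gave no call and a median of 0.12. In the glucocorticoid response list, Nr3c1, the glucocorticoid receptor itself, was the 1 call of 13 probe sets. Nr3c1 had hippocampus minus cortex values of 0.20, 0.29, 0.35, 0.45 and 0.44 in risperidone rats and -0.04, -0.18, -0.11, -0.21 and 0.01 in vehicle rats, without overlap. Its regional difference of 0.45 (standard error 0.07, adjusted p = 0.0138) held without each single rat, with changes of -0.34 in frontal cortex (adjusted p = 0.0600) and 0.11 in hippocampus (adjusted p = 0.284).

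**Figure D4:**
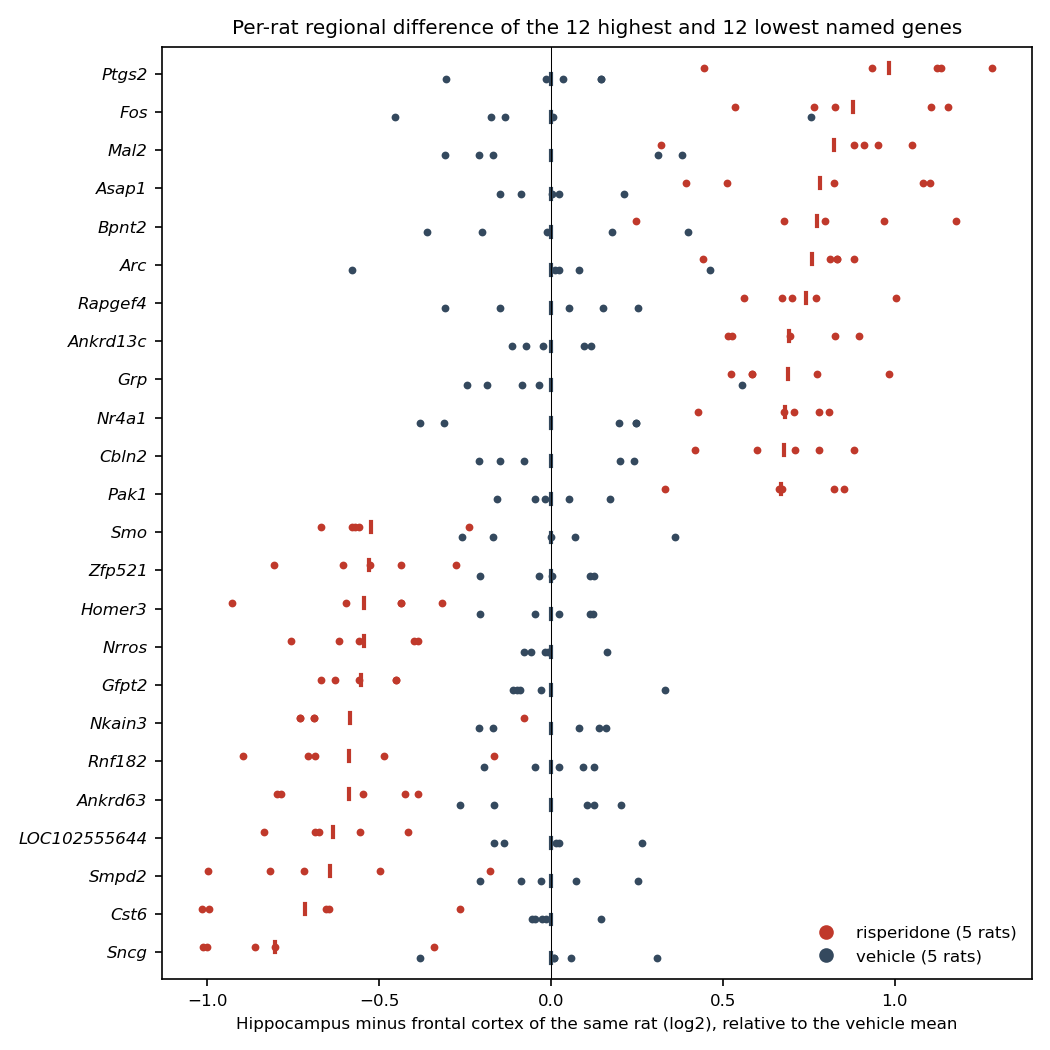
Hippocampus minus frontal cortex of each rat (horizontal axis, log2), shifted so that the vehicle mean of each gene is 0, for the 12 named genes with the highest and the 12 with the lowest regional difference. Red points are risperidone rats and dark points vehicle rats, with ticks at the means. The groups did not overlap for Ptgs2 or Rapgef4 at the top or for Cst6 near the bottom, and overlapped for Fos and Sncg.

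Of the lists for signaling, PKA, cAMP and CREB signaling held 70 probe sets for 41 genes, with a median of 0.04. Of these probe sets 3 were called higher (4.29%, beside 1.27% of all tested) for 2 genes. Rapgef4, an exchange factor for Rap that cyclic AMP activates directly, had 10.81, 10.82, 11.08, 11.06 and 10.50 in risperidone cortex, against 11.37, 11.70, 11.27, 11.41 and 11.66 in vehicle cortex. In hippocampus it had 10.93, 10.87, 11.11, 10.96 and 10.85 in risperidone rats, against 10.87, 10.74, 10.87, 10.81 and 10.87 in vehicle rats. The groups did not overlap in frontal cortex and overlapped in hippocampus. The regional difference was 0.74 (standard error 0.11, adjusted p = 0.0137), with a fall of 0.63 in frontal cortex (adjusted p = 0.0351) and 0.11 in hippocampus (adjusted p = 0.268). Prkacb, a catalytic subunit of protein kinase A, was called with 2 of its 3 probe sets. Its hippocampus minus cortex values were -0.19, -0.08, -0.03, 0.05 and -0.03 in risperidone rats, against -0.49, -0.42, -0.61, -0.66 and -0.62 in vehicle rats. The difference of 0.50 (standard error 0.07, adjusted p = 0.0129) had a larger share in hippocampus, 0.32 (adjusted p = 0.104), than in frontal cortex, -0.17 (adjusted p = 0.296). The calls of Rapgef4 and Prkacb held without each single rat, and without risperidone rats 2 and 5 they were 0.67 (adjusted p = 0.0684) and 0.50 (adjusted p = 0.0576).

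Monoamine receptors, the direct targets of risperidone and their relatives, gave 1 lower and no higher call among 19 probe sets for 15 genes. The lower share was 5.26%, beside 0.376% of all tested, and rests on 1 call. The called gene was Htr4, a serotonin receptor that raises cyclic AMP and is not a main target of the drug. Its hippocampus minus cortex values were 1.94, 1.53, 1.80, 1.92 and 1.86 in risperidone rats, against 2.23, 2.45, 2.43, 2.16 and 2.37 in vehicle rats, without overlap. In frontal cortex it lay between 4.63 and 5.06 in risperidone rats and 4.76 and 5.01 in vehicle rats, and in hippocampus risperidone rat 1 alone was within the vehicle range. The regional difference was -0.52 (standard error 0.09, adjusted p = 0.0219), with -0.64 in hippocampus (adjusted p = 0.0959) and -0.12 in frontal cortex (adjusted p = 0.451). All cortical values lay under 5.88, the lowest mean level of any probe set tested. That level comes from the filter and is no detection limit, as Tdo2 ran from 3.39 to 3.76 in frontal cortex. Whether a fall can be measured at the cortical levels of Htr4 was not tested. Its regional difference therefore does not settle where it changed. The call of Htr4 was lost without risperidone rat 5 (adjusted p = 0.0588) and without vehicle rat 5. Htr2a, the main serotonin receptor target, differed by 0.29 (adjusted p = 0.177), Drd1 by 0.40 (adjusted p = 0.625) and Drd2 by -0.06 (adjusted p = 0.951).

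In insulin, IGF-1 and PI3K signaling, 2 of 34 probe sets (5.88%) were called higher, at a list median of -0.004. Irs2, an adaptor of the insulin receptor, fell by 0.46 in frontal cortex (adjusted p = 0.0122) with -0.12 in hippocampus (adjusted p = 0.215), giving a difference of 0.34 (adjusted p = 0.0318). Pik3ca, a catalytic subunit of phosphoinositide 3-kinase, differed by 0.62 (adjusted p = 0.0309) on 1 of its 6 probe sets, while the other 5 ran from -0.13 to 0.12 without a call. Leaving out single rats ended the call of Irs2 in 7 of 10 cases (0.0964 without risperidone rat 5) and that of Pik3ca in 6 (0.0869 without vehicle rat 4).

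At the synapse, Rims2, a scaffold of the active zone, was the 1 of 37 probe sets for vesicle release that was called (2.7%, beside 1.27% of all tested). It differed by 0.53 (adjusted p = 0.0283, lost without vehicle rats 4 and 5). Kcnk1, a background potassium channel, differed by 0.42 (adjusted p = 0.0238) and Kcnh2, a voltage-gated potassium channel, by -0.34 (adjusted p = 0.0473), among 52 potassium channel probe sets. Each is 1.92% of that list, beside 1.27% higher and 0.376% lower of all tested. Kcnh2 was lost without 9 of the 10 rats (all but vehicle rat 3, adjusted p up to 0.133, without vehicle rat 4), and Kcnk1 without risperidone rat 5 and vehicle rats 4 and 5. Glutamate receptors (29 probe sets, median -0.03) and the GABA list (22, median 0.06) gave no call. None was called either among 77 probe sets of the respiratory chain (median 0.00), 32 of cholesterol synthesis (0.03), 40 of heat shock and unfolded protein genes (0.05), 8 of inflammation (-0.02) or 41 of ribosomal proteins (-0.09).

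**Figure D5:**
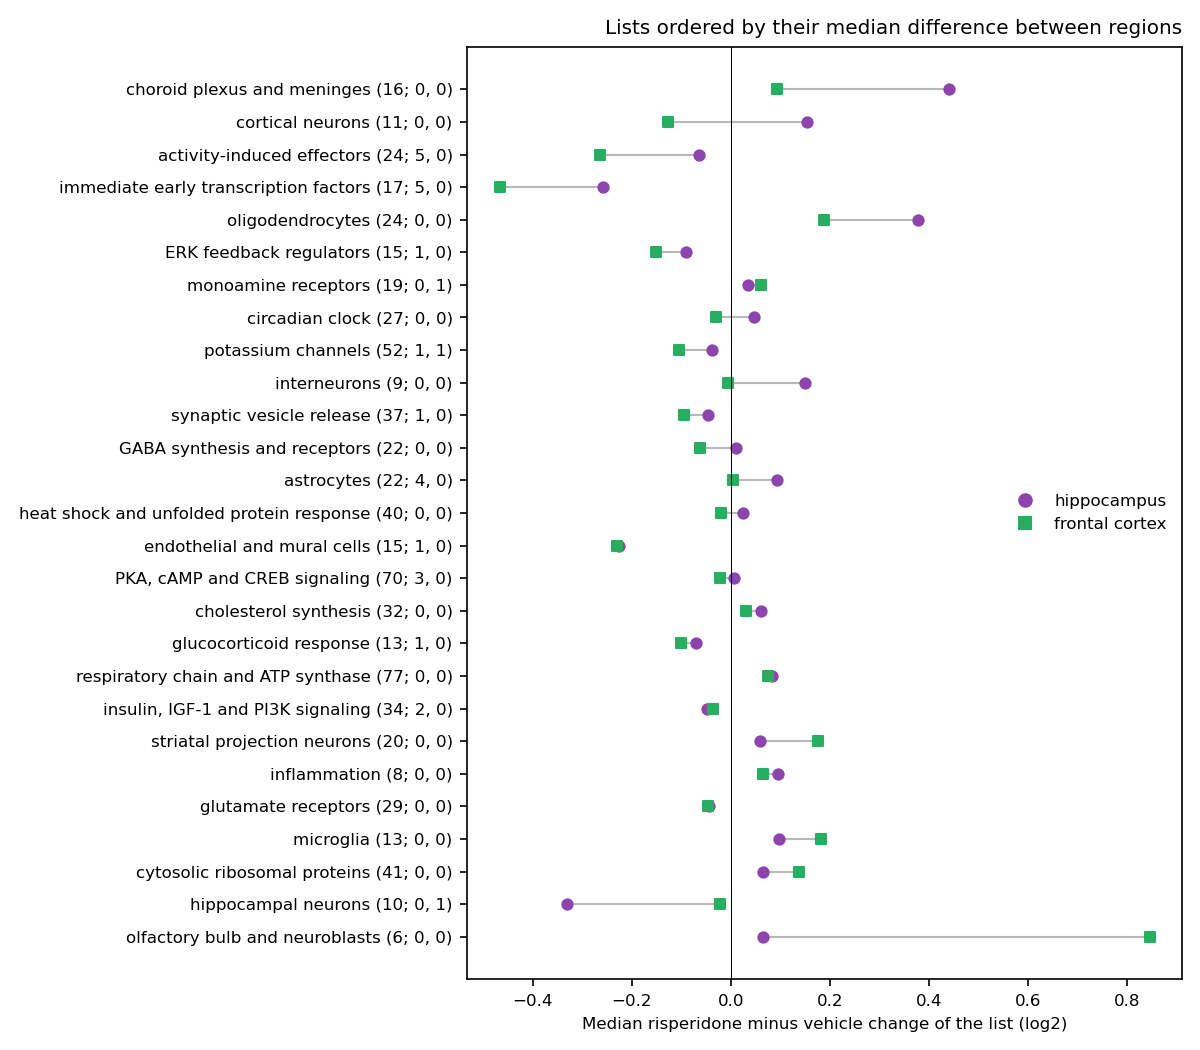
Median change after risperidone of each gene list (horizontal axis, log2) in hippocampus (circles) and frontal cortex (squares), ordered by the median regional difference. Numbers in brackets are the probe sets tested, those called higher and those called lower. Activity-related lists lay further to the left in frontal cortex than in hippocampus.

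Cell type lists moved as well. Astrocytes had 4 of 22 probe sets called higher (18.2%), for Aqp4, Fgfr3 and Glul, although the list median was 0.06. Aqp4, the water channel of astrocyte endfeet, had 11.86, 12.14, 12.10, 12.06 and 11.79 in risperidone hippocampus, above all vehicle hippocampi at 11.67, 11.59, 11.75, 11.65 and 11.64. In frontal cortex it had 11.04, 11.64, 11.52, 11.41 and 11.24 in risperidone rats, within and below the vehicle values of 11.56, 11.70, 11.34, 11.46 and 11.67. The regional difference was 0.51 (standard error 0.10, adjusted p = 0.0309, lost without 7 of the 10 rats, up to 0.0767 without vehicle rat 5), and 2 of its 3 probe sets were called. Fgfr3, a fibroblast growth factor receptor, differed by 0.46 (adjusted p = 0.0210, lost without risperidone rat 5 and vehicle rat 4), and Glul, glutamine synthetase, by 0.27 (adjusted p = 0.0437, lost without 9 of the 10 rats). The brighter probe set of Fgfr3 had 0.15 (adjusted p = 0.401), and the other 2 of Glul had 0.03 (adjusted p = 0.888) and 0.05 (adjusted p = 0.750). Acta2, smooth muscle actin of vessel walls, differed by 0.41 (adjusted p = 0.0442, also lost without 9 of the 10 rats) as the 1 call of 15 endothelial and mural probe sets.

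The hippocampal neuron list had a median of -0.31 over 10 probe sets, all negative, with 1 call, for Dsp, a desmosome protein of dentate granule cells, at -0.47 (adjusted p = 0.0334, lost without 7 of the 10 rats). The levels of Dsp overlapped between the regions over all rats. Its hippocampus minus cortex averaged 0.25 in vehicle rats and -0.23 in risperidone rats, values that carry the offset between regions. Cortical neuron markers had a median of 0.26 with 10 of 11 positive, oligodendrocyte markers 0.18 with 23 of 24 positive (mean level in hippocampus 10.12 to 10.29 in risperidone rats and 9.75 to 10.22 in vehicle rats), and choroid plexus and meningeal markers 0.32 with 14 of 16 positive, all without a call. Olfactory bulb markers had a median of -0.81 over 6 probe sets, all negative and none called, as in frontal cortex they were high in risperidone rats 2 and 5. Striatal projection neuron markers (20 probe sets, median -0.01) and interneuron markers (9, median 0.07) gave no call.

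The named genes with the largest higher regional differences outside these lists differed in where the change lay. Grp, a neuropeptide, was one of few with a change mainly in hippocampus, at 8.30, 9.06, 8.74, 8.66 and 8.36 in risperidone rats, against 8.25, 7.34, 7.54, 8.05 and 7.89 in vehicle rats. Hippocampal Grp was thus higher in every risperidone rat than in any vehicle rat. In frontal cortex Grp lay between 8.22 and 9.10 in risperidone rats and 8.21 and 8.86 in vehicle rats, so that its regional difference was 0.69 (adjusted p = 0.0364, lost without 8 of the 10 rats). Mal2, a membrane protein of vesicle transport, differed by 0.82 (adjusted p = 0.0318), Asap1, a regulator of Arf proteins, by 0.78 (adjusted p = 0.0213), and Bpnt2, a Golgi phosphatase, by 0.77 (adjusted p = 0.0458). All 5 probe sets of Asap1 were positive, 0.44 to 0.78, with 1 of them called. By contrast, the other 3 probe sets of Bpnt2 ran from -0.16 to 0.14. The other, brighter probe set of Mal2 had 0.32 (adjusted p = 0.0784). On leaving out single rats, the adjusted p of these 3 genes was highest without vehicle rat 4. It was then 0.0930 for Mal2, 0.0603 for Asap1 and 0.123 for Bpnt2. Calls were lost over all probe sets without that rat (52 higher and 8 lower were left), so these values are not particular to the 3 genes.

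Ankrd13c, Cbln2 and Pak1 stayed called without each single rat, on the probe sets of smallest p. Of the other 3 probe sets of Ankrd13c, 1 was called (0.65) and 2, the brightest among them, had 0.10 (adjusted p = 0.387) and 0.05 (adjusted p = 0.780). The other, brighter probe set of Pak1 had 0.20 (adjusted p = 0.204). Pak1, a kinase that Rac and Cdc42 activate and that acts on the actin cytoskeleton, had hippocampus minus cortex values of 0.09, 0.24, -0.25, 0.08 and 0.27 in risperidone rats, against -0.63, -0.53, -0.41, -0.74 and -0.60 in vehicle rats. Its difference of 0.67 (standard error 0.10, adjusted p = 0.0137) combined 0.36 in hippocampus with -0.31 in frontal cortex. Cbln2, a secreted organizer of synapses, was higher in frontal cortex than in hippocampus in all 10 rats, and less so after risperidone, at -1.44 ± 0.17 in risperidone rats and -2.12 ± 0.21 in vehicle rats (SD, n = 5 each), with a difference of 0.68 (adjusted p = 0.0157 from limma). Ankrd13c, an ankyrin repeat protein, had 0.68, 0.50, 0.51, 0.81 and 0.88 in risperidone rats, against -0.04, 0.08, 0.10, -0.09 and -0.13 in vehicle rats, and differed by 0.69 (standard error 0.09, adjusted p = 0.00856). It was also called without risperidone rats 2 and 5 (0.68, adjusted p = 0.0416), together with 15 other probe sets. Those with a gene name, chosen here by that criterion after their values were seen, were Fmr1 (0.79), Pcyox1 (0.69), Sh3yl1 (0.60), Trpm7 (0.56), Srp54a (0.53), Lrrc4c (0.51) and, in the other direction, Sncg (-0.94). Fmr1 encodes an RNA-binding protein that represses translation at synapses.

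Lower regional differences were led by Sncg, gamma-synuclein, a small protein of axon terminals, which had 6.89, 6.85, 7.03, 7.13 and 9.15 in risperidone hippocampus, against 9.67, 9.64, 10.53, 9.79 and 10.74 in vehicle hippocampus. In frontal cortex it had 5.67, 5.48, 5.80, 5.71 and 7.26 in risperidone rats, against 7.38, 7.40, 7.99, 7.55 and 8.89 in vehicle rats. Every risperidone rat lay below every vehicle rat in both regions, and rat 5 of each treatment was the highest of its group. Hippocampus minus cortex overlapped through these rats, at 1.89 in risperidone rat 5 and 1.85 in vehicle rat 5. Sncg fell by 1.86 in frontal cortex (adjusted p = 0.0368), its change in hippocampus was -2.66 (standard error 0.42, adjusted p = 0.0680), and the regional difference was -0.80 (standard error 0.14, adjusted p = 0.0233, lost without vehicle rat 4 at 0.0678). In frontal cortex every risperidone rat but rat 5 lay under 5.88, the lowest mean level of any probe set tested. Whether a further fall can be measured at such levels was not tested. The regional difference of Sncg therefore does not settle whether its fall was larger in hippocampus.

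Several other genes with a lower regional difference had a higher intensity in hippocampus than in frontal cortex in all 10 rats, by a smaller margin after risperidone. Cst6, a cystatin that inhibits cysteine proteases, exceeded its cortical level by 1.78, 1.05, 1.03, 1.39 and 1.40 in risperidone rats, against 1.99, 2.00, 2.02, 2.19 and 2.03 in vehicle rats, without overlap. Its difference was -0.72 (standard error 0.12, adjusted p = 0.0214, lost without risperidone rat 5 and vehicle rats 4 and 5). For Homer3, a scaffold related to Homer1, the margin was 1.77 to 2.38 in risperidone rats and 2.49 to 2.82 in vehicle rats. For Nkain3, a partner of the sodium pump, it averaged 2.13 ± 0.28 in risperidone rats and 2.72 ± 0.18 in vehicle rats (SD, n = 5 each). Rnf182, a ubiquitin ligase, had 1.92 ± 0.28 in risperidone rats and 2.51 ± 0.13 in vehicle rats, and Smpd2, a neutral sphingomyelinase, had 1.92 ± 0.32 in risperidone rats and 2.56 ± 0.17 in vehicle rats. These 4 genes differed by -0.54 to -0.64 (adjusted p = 0.0345, 0.0441, 0.0352 and 0.0417 in that order), and their calls were lost without 6 to 9 of the 10 rats. The other probe set of Rnf182 had -0.39 (adjusted p = 0.119). Hippocampal neuron markers were lower in risperidone hippocampi, as given above. With these markers and those of cortical neurons as covariates no probe set at all was called, so the loss of these 5 calls tells nothing about them. The differences were then -0.39 for Cst6, -0.42 for Homer3, -0.52 for Nkain3, -0.27 for Rnf182 and -0.11 for Smpd2. Homer3 and Nkain3 thus stayed within 1.5 times, while the others shrank by more, and the cause was not tested. Cortical means of Homer3, Nkain3 and Smpd2 were under 5.88 in vehicle rats (5.79, 5.81 and 5.52), as were those of Smo (5.64) and LOC102555644 (5.26).

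Nrros, a protein of microglia that binds latent transforming growth factor beta, had 6.74, 6.49, 6.59, 6.55 and 6.53 in risperidone hippocampus, below all vehicle hippocampi at 6.89, 6.97, 7.01, 6.98 and 6.86. Its regional difference of -0.54 (standard error 0.08, adjusted p = 0.0137) held without each single rat, with -0.36 in hippocampus (adjusted p = 0.0624, with no smaller one in hippocampus) and 0.18 in frontal cortex (adjusted p = 0.205). The whole microglia list gave no call and a median of -0.08. Gfpt2, the first enzyme of hexosamine synthesis, and Ankrd63 rose in frontal cortex, by 0.45 and 0.63, with -0.10 and 0.04 in hippocampus, and differed by -0.55 (adjusted p = 0.0182, lost without risperidone rat 5) and -0.59 (adjusted p = 0.0291, lost without 5 of the 10 rats). Smo, the transducer of hedgehog signals, and Zfp521, a zinc finger factor, both differed by -0.53 (adjusted p = 0.0441 and 0.0265), and LOC102555644 differed by -0.63 (adjusted p = 0.0137), the last without loss in any single rat. The other probe set of Smo had -0.14 (adjusted p = 0.564).

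The same regional difference after haloperidol, measured against the same 5 vehicle rats, called no probe set with limma (2216 had an unadjusted p under 0.05), nor did a fit that included the risperidone rats. The values of the activity genes after haloperidol were 0.73 for Ptgs2 (adjusted p = 0.245), 0.63 for Fos (0.350), 0.96 for Arc (0.245) and 0.76 for Nr4a1 (0.245), beside 0.98, 0.88, 0.76 and 0.68 after risperidone. Sncg stood at -0.49 (adjusted p = 0.537), Htr4 at -0.31 (0.250) and Rapgef4 at 0.32 (0.425). Since both comparisons rest on the same vehicle rats, these values are not independent of those after risperidone, and the difference between the drugs was not tested here.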

How the data were processed

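RNA of rat brain regions was hybridized to Affymetrix rat genome arrays. The authors made the deposited intensities (linear scale, 31099 probe sets, 57 of them controls) with RMA in R 2.7.2, which corrects background, normalizes between arrays and summarizes probe sets. The sources used here do not say whether the regions were normalized together. Array medians were 89.9 to 93.1 in frontal cortex and 106.7 to 110.4 in hippocampus, and a constant offset between regions cancels in the regional difference. Arrays have no read depth, so their number limits the precision.

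After a log2 transform of the intensities, 18609 probe sets with a mean over the 45 arrays at or above the 40th percentile, controls left out, were tested with limma 3.58.1 in R 4.3.3. Per-rat differences, 5 against 5, gave the regional difference, and each region was also fitted on its own 10 arrays. Of the probe sets tested, 14116 carry 1 gene, 306 several and 4187 none by the platform annotation. The same number in the labels marks 1 rat, and deviations of a rat's regions from their group means correlated at 0.10 to 0.67. Nothing says that the rats of a group were housed or processed apart, so p-values measure the spread between these rats.

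Named genes were the 12 highest and 12 lowest called regional differences with 1 gene, by the probe set of smallest p, and up to 3 called genes of smallest p in each of 27 lists (17 of functions, 10 of cell types). Lists are described by counts and medians. Members, lists and alternatives were chosen with earlier results of these data known, and the covariates of hippocampal and cortical neuron markers and of 3' to 5' ratios after the data were seen. Marker levels are means over 1 probe set per gene, the one with the highest mean. The tests were checked on simulated data. Genes of the lists without a probe set were not analysed here.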

Additional observations from a re-analysis of the deposited data

Results flagged for a closer look

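The difference between regions itself passed the test for 236 probe sets called higher and 70 called lower, as described above.

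A total of 92 groups of 5 rats were screened for a rat far from the others (gap over range above 0.71), of which chance passes about 1 in 20, and 12 passed. Of hippocampus minus cortex values in risperidone rats, rat 1 stood apart for Arc (0.23, others 0.60 to 0.67), Ier5 (-0.48, others -0.03 to 0.04) and Nkain3 (2.64, others 1.99 to 2.03), rat 2 for Glul (0.16, others 0.02 to 0.06), and rat 3 for Mal2 (-0.10, others 0.46 to 0.63) and Smo (1.10, others 0.67 to 0.78). In vehicle rats, rat 1 stood apart for Grp (-0.07, others -0.87 to -0.66) and Ier5 (-0.40, others -0.72 to -0.63), rat 2 for Gfpt2 (0.48, others 0.04 to 0.12), rat 3 for Pik3ca (-0.15, others -0.56 to -0.45) and rat 4 for Cst6 (2.19, others 1.99 to 2.03). Striatal projection neuron markers in frontal cortex averaged 8.29 in risperidone rat 1, against 7.43 to 7.57 in the other risperidone rats.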

How the results depend on the processing

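The counts of called regional differences, 236 higher and 70 lower, were 102 and 29 with no filter on level, 45 and 18 with the rat as a fixed block in a fit of all 45 arrays, 95 and 9 with olfactory bulb and choroid plexus markers as covariates, and 14 and 2 without risperidone rats 2 and 5. With the rat ignored (no replicate block, 20 arrays as 4 groups) they were 62 and 9, and with the replicate number as a block between risperidone and vehicle rats (replicate block) 0 and 0. The labels give these numbers no meaning beyond naming rats, and same-numbered rats correlated at -0.24 to 0.00. Whether the numbers carry an order of processing was not tested. With hippocampal and cortical neuron markers as covariates they were 0 and 0. Leaving out single rats gave 45 to 220 higher and 7 to 139 lower. The other settings stayed within 1.5 times: the 60th percentile filter (296 and 51), 15 rats (211 and 68), the rat as a random block (163 and 82), repeated quantile normalization (202 and 56), a trended robust variance (213 and 55), no fold minimum (237 and 72) and the 3' to 5' covariate (220 and 54). Of the 163 under the random block, 111 were among the 236.

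The hippocampus count of 0 was 21 with the random block, 3 with the replicate block and 0 to 263 without single rats. The frontal cortex count of 194 was 128 with no filter, 632 with the random block, 2 with the replicate block and 25 to 218 without single rats. Of the 41 named genes, 9 kept their call without each single rat. Their values moved by over 1.5 times only under marker covariates: 14 with those of hippocampal and cortical neurons, as given above, and 4 with those of olfactory bulb and choroid plexus (Asap1 0.48, Rnf182 -0.37, Smpd2 -0.32, Cst6 -0.47). The cause of these changes was not tested. The covariates and the replicate block also leave fewer degrees of freedom.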
